A study of Mus musculus with 16 samples.

Results

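Granins are acidic proteins that are packed, together with peptide hormones, into the dense-core granules of endocrine and neuronal cells, where they aggregate as the granule forms and are themselves cut into peptides. The granule membrane carries ICA512/IA-2 (Ptprn) and phogrin (Ptprn2), transmembrane proteins with a tyrosine phosphatase-like domain. In pituitary corticotropes and melanotropes these granules store the products of proopiomelanocortin (Pomc). The 7 genes described here were taken by symbol from the annotation of both deposited tables: the chromogranins Chga and Chgb, the secretogranins Scg2 and Scg3, the granin Vgf, and Ptprn and Ptprn2. They are 7 of the 24063 genes listed in each table, and all 7 passed the filters on low values.

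The 16 RNA-seq libraries came from AtT-20 cells, a mouse pituitary corticotrope tumour line, at passages 10 to 20 in every group. Pax7 cells (2 libraries) carried a 3x flag-Pax7 construct and were set against Neo cells (2 libraries) with a 3x flag-Neo construct, neither of them treated. ER-Pax7 cells carried a 3x flag-ER-Pax7 construct and were sampled untreated (0 h) and after 12, 24 and 96 h of 4-hydroxytamoxifen, the ligand that activates fusions of this kind, with 3 libraries at each time. The promoter of the constructs and whether the populations were clones or pools are not given in the sources used here. Neo and Pax7 are a single pair of populations, so the effect of Pax7 and any other difference between them cannot be told apart. No library of cells without ER-Pax7 but with 4-hydroxytamoxifen was analysed here, so activation of ER-Pax7, the compound and time in culture cannot be told apart. Whether replicates were grown as separate cultures is not stated in the labels, and the p-values here reflect the scatter among these libraries, which could be technical.

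The ER-Pax7 libraries held 61.4 to 88.7 M recovered exon read mates, and the Pax7 and Neo libraries 44.2 to 54.7 M estimated gene-body reads. Each of the 7 genes rested on at least 3535 exon reads in an ER-Pax7 library (Vgf). In a Pax7 or Neo library each rested on at least an estimated 5987 gene-body reads (Ptprn2), a coarse figure because the FPKM are rounded. Pax7 transcript stood at 2.29 and 2.37 FPKM in the 2 Pax7 libraries, against 0 and 0.0104 FPKM in the 2 Neo libraries. In ER-Pax7 cells it was present at every time, at 1648 to 1911 scaled exon reads, so its level does not check the activation. The corticotrope genes Pomc (73058 to 95750 scaled exon reads) and Tbx19 (2671 to 3536) were expressed in all 12 ER-Pax7 libraries. Of 8 markers of other pituitary cells, Prl, Tshb and Fshb were listed at 0 in all 12, Gh and Pou1f1 reached at most 0.209 and 0.110 scaled exon reads, and Lhb (1.06 to 3.18), Cga (0.161 to 3.03) and Nr5a1 (2.01 to 6.94) were low but above 0. The 8 summed to 7.94 to 8.32 at 0 h and 4.24 to 5.04 at 96 h. Against 0 h, Cga was higher at 24 h and Nr5a1 lower at 24 and 96 h (limma). Of 6 folliculostellate, stromal and blood cell markers, Aldoc was expressed (1316 to 1945), Slc1a3 (27.2 to 39.7) and Col1a1 (16.5 to 28.4) were low, and S100b, Pecam1 and Ptprc reached at most 2.22, 4.25 and 0.847. Of the 5 of them tested, 0 were higher and 2 lower at 96 h than at 0 h (Aldoc and Col1a1). Of the tested melanotrope markers, 3 of 3 were higher in Pax7 than Neo cells and 4 of 4 were higher at 96 h than at 0 h (limma, adjusted p under 0.05). Those counts include Pax7 itself and Pcsk2, and Drd2, a defining receptor of melanotropes, was listed at 0 in the Pax7 and Neo libraries and reached at most 0.110 scaled exon reads in ER-Pax7 cells. Without Pax7, the 4 remaining melanotrope markers, Drd2 included, summed to 2.14 to 2.15 FPKM in Pax7 cells, against 0.0806 to 0.115 FPKM in Neo cells, and to 181 to 194 scaled exon reads at 0 h, 264 to 282 at 12 h, 382 to 387 at 24 h and then 609 to 669 at 96 h. Pcsk2 and Oacyl carried almost all of these sums, with means of 1.28 and 0.814 FPKM in Pax7 cells. At 96 h their means were 518 and 119 scaled exon reads, while Esm1 averaged 2.89. The part of these shifts in the results below was not tested. Of 6 corticotrope markers, 0 were higher and 4 lower in Pax7 than Neo cells (Pitx1, Neurod1, Crhr1 and Nr3c1). At 96 h 3 of the 6 were higher and 2 lower than at 0 h. Crhr1 was low, at 8.82 to 21.7 scaled exon reads in ER-Pax7 cells. These marker counts stand beside 36.7% of all tested genes called in Pax7 over Neo cells and 33.7% at 96 h over 0 h. In 1 library, 12 h replicate 2, the ribosomal RNA gene Rn45s stood apart at 170265 scaled exon reads, with 54215 to 91647 in the other 11.

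Start regions are shown for those of the 7 genes in which a searched element was found. Any link between an element and the course of a transcript was not tested. RefSeq windows on GRCm38.p6, from 250 bases before to 50 bases after the annotated start, were given for 6 of the 7 genes, all but Vgf. Chga (chr12:102554691-102554990, plus strand), Chgb (chr2:132781392-132781691, plus strand) and Scg2 (chr1:79439977-79440276, minus strand) are printed 5′ to 3′ with the cAMP response element core TGACGT and the 2 bases after it in capitals. Scg2 and Ptprn2 (chr12:116485470-116485769, plus strand) also have GGTGCTGAA in capitals, the reverse strand of TTCAGCACC, the left part of the element bound by the repressor REST.
Chga: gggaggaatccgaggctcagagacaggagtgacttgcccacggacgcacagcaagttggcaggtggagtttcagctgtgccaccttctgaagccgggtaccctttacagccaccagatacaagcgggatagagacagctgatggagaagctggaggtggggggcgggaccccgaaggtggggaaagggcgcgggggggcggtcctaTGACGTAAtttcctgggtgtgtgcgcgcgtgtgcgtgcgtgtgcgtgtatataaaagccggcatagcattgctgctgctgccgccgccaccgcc
Chgb: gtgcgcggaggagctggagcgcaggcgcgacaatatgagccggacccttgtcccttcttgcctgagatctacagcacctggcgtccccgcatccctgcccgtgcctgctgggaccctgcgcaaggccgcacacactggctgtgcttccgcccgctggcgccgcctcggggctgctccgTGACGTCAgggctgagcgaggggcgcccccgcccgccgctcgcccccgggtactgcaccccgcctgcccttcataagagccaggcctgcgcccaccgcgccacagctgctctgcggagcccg
Scg2: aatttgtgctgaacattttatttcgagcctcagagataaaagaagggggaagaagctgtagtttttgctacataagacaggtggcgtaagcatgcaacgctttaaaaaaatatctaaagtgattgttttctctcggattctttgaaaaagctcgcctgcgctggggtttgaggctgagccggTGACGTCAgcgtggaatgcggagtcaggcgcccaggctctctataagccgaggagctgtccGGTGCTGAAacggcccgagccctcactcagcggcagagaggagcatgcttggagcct
Ptprn2: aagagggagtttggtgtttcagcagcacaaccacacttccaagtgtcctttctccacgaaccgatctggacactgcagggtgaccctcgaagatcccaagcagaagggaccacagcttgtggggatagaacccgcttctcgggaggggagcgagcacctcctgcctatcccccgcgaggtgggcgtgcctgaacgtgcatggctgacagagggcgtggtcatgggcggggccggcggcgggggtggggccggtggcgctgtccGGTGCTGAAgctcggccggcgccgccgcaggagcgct

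The full palindrome TGACGTCA was found in the Chgb window at positions -72 to -65 and in the Scg2 window at -68 to -61, counted with the annotated start as 0. It occurs in 1.79% of the 32851 windows in the table. The Chga window held only the core TGACGT, at -44 to -39, which 7.51% of windows hold on either strand and which also lies inside each TGACGTCA. The annotated start lies 28 bases upstream of the gene start used in the deposited table for Chga. It lies 364 bases downstream of that start for Chgb and 64 bases downstream for Scg2. For Scg3, Ptprn and Ptprn2 it is at the same base. Positions counted from the deposited starts would shift by these distances, in Chga to lower values. The Scg2 and Ptprn2 windows shared the 16-base run GCTGTCCGGTGCTGAA, at -14 and at 6, and no other gene's window held it (2 of 32851 windows). TTCAGCACC alone was found in 0.371% of windows and GGACAGC, the right part of the REST element, in 6.56%. In the shared run the 2 parts lie directly side by side, at -14 to -8 and -7 to 1 in Scg2, and at 6 to 12 and 13 to 21 in Ptprn2. Both strands were searched for all elements. No such letters were found in the Ptprn and Scg3 windows, and none of the 6 windows held TAAT followed by ATTA after 2 or 3 bases, or GTCACGC, letters bound by homeodomains and paired domains, which are in 0.39%, 0.487% and 2.09% of windows. TATAAA was found in the Chga window at 5 to 10, and 13.6% of windows hold it. These matches are descriptions of the letters and not binding sites.

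In ER-Pax7 cells the 7 transcripts did not share a single course. Chga, Chgb and Scg2 were lower at every treated time, Vgf and Ptprn were lower at 12 and 24 h and back at their starting level at 96 h, and Ptprn2 passed no test at any time. Scg3 moved least among those that changed and was lower at 24 h. Values are exon reads scaled by the authors to a common total and then by TMM factors, and folds are on the log2(value + 1) scale from limma across all 15188 tested genes. In bulk RNA, fewer cells of a kind and less RNA per cell cannot be told apart. Each comparison with 0 h shares the same 3 untreated libraries.

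**Figure D1:**
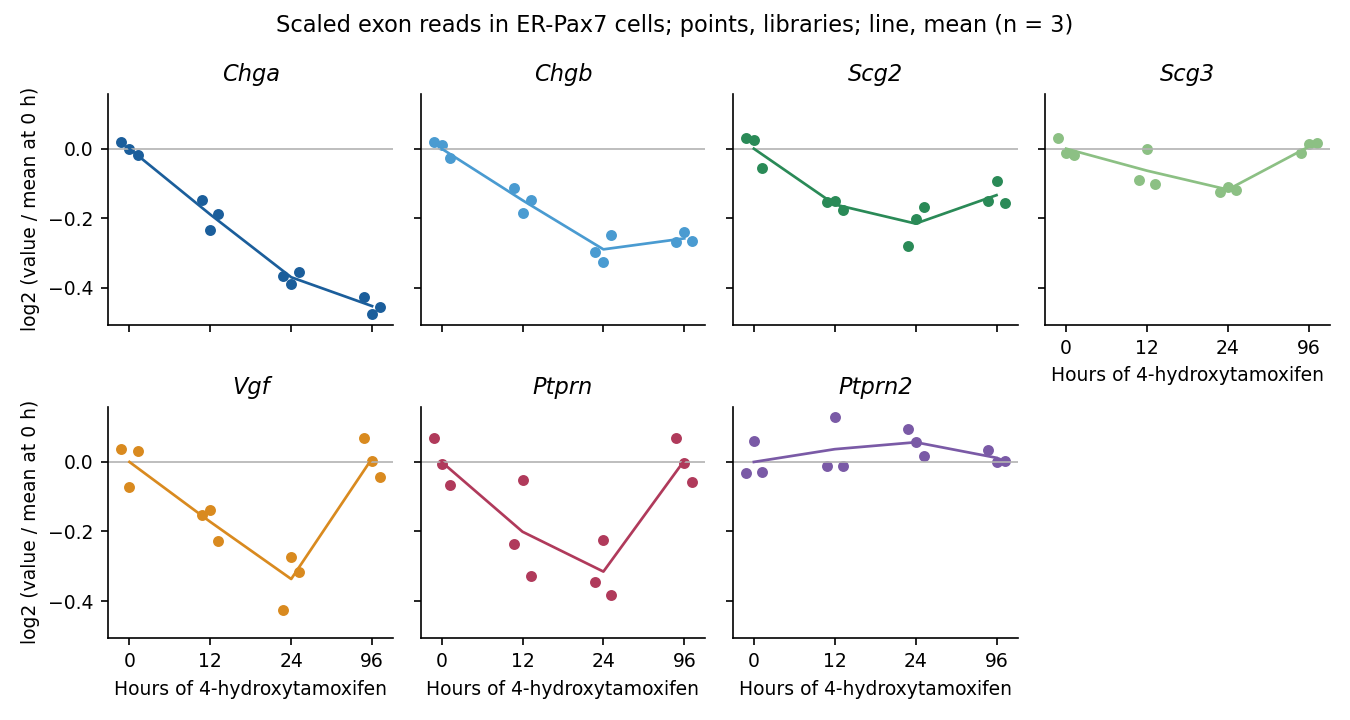
Scaled exon reads of the 7 genes in ER-Pax7 cells as log2 of the value over the mean at 0 h, against hours of 4-hydroxytamoxifen (times evenly spaced, not to scale); points are the 3 libraries of each time and the line joins means. Chga lies lowest at 96 h, Vgf and Ptprn dip at 24 h and return to the 0 h level, and Ptprn2 stays within the spread of its 0 h libraries or slightly above it.

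Chga encodes chromogranin A, a main soluble protein of the granule core. It lies at chr12:102554969-102565027 on mm10 (NM_007693, plus strand). Its scaled exon reads were 29571, 29154 and 28788 at 0 h, 26327, 24804 and 25620 at 12 h, 22630, 22281 and 22818 at 24 h, and 21688, 20978 and 21281 at 96 h. No library of a later time overlapped those of an earlier time. The log2 fold against 0 h was -0.19 ± 0.04 at 12 h (SE, limma adjusted p = 0.00431), -0.37 ± 0.04 at 24 h (1.26e-06) and -0.45 ± 0.04 at 96 h (2.31e-08). By 96 h Chga had thus fallen by 26.9%.

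Chgb encodes chromogranin B, the other large chromogranin of the core, and lies at chr2:132781278-132795072 (NM_007694, plus strand). Its scaled exon reads were 16985, 16888 and 16450.1 at 0 h, 15504, 14750 and 15152 at 12 h, 13660.3, 13388 and 14125 at 24 h, and 13926, 14193 and 13961 at 96 h. The 12 h libraries lay below all 0 h libraries and above all later ones, while the 24 h and 96 h libraries overlapped. Chgb fell by 0.15 on the log2 scale at 12 h (limma adjusted p = 0.0175), by 0.29 at 24 h (1.30e-05) and by 0.26 at 96 h (1.96e-05). The 12 h call was lost without 0 h replicate 1 or 2 or 12 h replicate 2 or 3, where adjusted p was 0.0547, 0.0726, 0.0644 and 0.0535.

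Scg2 encodes secretogranin II, the precursor of secretoneurin, at chr1:79434669-79440090 (NM_009129, minus strand). Scaled exon reads were 3817, 3803 and 3598 at 0 h, 3360.5, 3366 and 3311 at 12 h, 3080.0, 3250.2 and 3332 at 24 h, and 3367, 3505 and 3354 at 96 h. All 9 treated libraries lay below the lowest 0 h library. The decrease was present at 12 h (log2 fold -0.16 ± 0.04, limma adjusted p = 0.00759), was -0.22 ± 0.04 at 24 h (2.55e-04) and -0.13 ± 0.04 at 96 h (0.00714). The 96 h libraries lay above the 24 h libraries without overlap, but that difference did not pass (log2 fold 0.08, 95% interval 0.01 to 0.16, adjusted p = 0.155).

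Scg3 encodes secretogranin III, which binds chromogranin A and the granule membrane. It lies at chr9:75643366-75684056 (NM_001164790, minus strand). Its scaled exon reads were 1553, 1507 and 1504 at 0 h, 1430.5, 1520.0 and 1418 at 12 h, 1396, 1409 and 1402 at 24 h, and 1508, 1535 and 1540.3 at 96 h. The 24 h libraries lay below those of every other time, and the 96 h libraries were mixed with those of 0 h. Scg3 fell by 0.12 on the log2 scale at 24 h against 0 h (limma adjusted p = 0.0214) and was 0.12 higher at 96 h than at 24 h (adjusted p = 0.0174). The first call was lost without 0 h replicate 1 or any 1 of the 24 h replicates, with adjusted p from 0.0504 to 0.0784, and the second without 96 h replicate 2 or 3, with 0.0745 and 0.0683.

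Vgf encodes a secreted granin that is cut into several peptides and was named for its induction by nerve growth factor. It lies at chr5:137030295-137033351 (NM_001039385, plus strand). Its scaled exon reads were 558, 517 and 556 at 0 h, 489, 494 and 464 at 12 h, 405, 449.6 and 437 at 24 h, and 570.5, 545 and 527 at 96 h. The 24 h libraries were below all others, and the 96 h libraries overlapped the 0 h libraries. Vgf fell by 0.34 on the log2 scale at 24 h (limma adjusted p = 2.49e-05), or by 20.8%, and at 96 h its fold against 0 h was 0.01 (95% interval -0.09 to 0.11, adjusted p = 0.890). It was 0.35 ± 0.05 higher at 96 h than at 24 h (SE, adjusted p = 3.20e-05).

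Ptprn, the gene of ICA512/IA-2, lies at chr1:75247041-75264208 (NM_008985, minus strand) and followed the same dip. Scaled exon reads were 899.9, 854 and 819 at 0 h, 728, 827 and 684 at 12 h, 675, 734 and 658 at 24 h, and 899, 856 and 825 at 96 h. All 24 h libraries lay below all 0 h and all 96 h libraries, while 12 h replicate 2 lay within the 0 h range. Ptprn fell by 0.32 on the log2 scale at 24 h (limma adjusted p = 5.31e-04) and was 0.32 ± 0.06 higher at 96 h than at 24 h (SE, adjusted p = 7.17e-04). At 96 h the fold against 0 h was 0.00 (95% interval -0.11 to 0.12, adjusted p = 0.966).

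Ptprn2, the gene of phogrin, spans chr12:116485720-117278167 (NM_011215, plus strand), and 3 annotated genes, Gm10421, Gm5441 and Mir153, lie within or across it. Scaled exon reads were 813, 866 and 815 at 0 h, 825.0, 909 and 825 at 12 h, 888, 865 and 841 at 24 h, and 851, 830.5 and 833 at 96 h. Libraries of all 4 times overlapped. The log2 fold at 24 h was 0.06 (95% interval -0.03 to 0.14, limma adjusted p = 0.418), and the test over all 4 times did not pass (adjusted p = 0.666). That test passed for the other 6 genes, with 30.3% of all tested genes passing it.

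The counts over the 7 genes followed these courses. At 12 h, 0 genes were higher and 5 were lower than at 0 h (limma, adjusted p under 0.05), in a comparison that called 6.49% of all genes and 3.71% as lower. At 24 h, 0 were higher and 6 were lower, against 13.5% of all genes called and 8.07% called lower. At 96 h, 0 were higher and 3 were lower, against 33.7% called and 17.4% called lower. The median log2 fold of the 7 genes was -0.16 at 12 h, -0.29 at 24 h and 0.00 at 96 h, and that of all tested genes lay between -0.00 and 0.00 each time. Between 24 h and 96 h, 3 of the 7 (Scg3, Vgf and Ptprn) were higher at 96 h and 0 were lower, against 12.7% of all genes called and 6.16% called higher. Between 12 h and 24 h limma called 0 of the 7, with 3 at an unadjusted p under 0.05, in a comparison that called 0.171% of all genes; edgeR called 1 (Chga) and DESeq2 called 2 (Chga and Chgb), all lower at 24 h. At 96 h against 24 h, DESeq2 also called Chga lower (log2 fold -0.08, adjusted p = 0.0370), and its libraries did not overlap, while limma did not call it (adjusted p = 0.20).

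Vgf and Ptprn were among the 5 called at 12 h, at log2 folds of -0.17 and -0.20 (limma adjusted p 0.0253 and 0.0328), and these calls too were lost in several fits. The Vgf call was lost without 0 h replicate 1 or 3 or 12 h replicate 1 or 3, with adjusted p up to 0.134. The Ptprn call was lost without 0 h replicate 1 or 2, 12 h replicate 1 or 3, or 96 h replicate 2, with adjusted p up to 0.211. Without 12 h replicate 2, the library with high Rn45s, 4 of the 7 were lower at 12 h. The log2 folds were then -0.17 for Chga, -0.13 for Chgb, -0.16 for Scg2, -0.09 for Scg3, -0.19 for Vgf, -0.28 for Ptprn and -0.01 for Ptprn2.

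**Figure D2:**
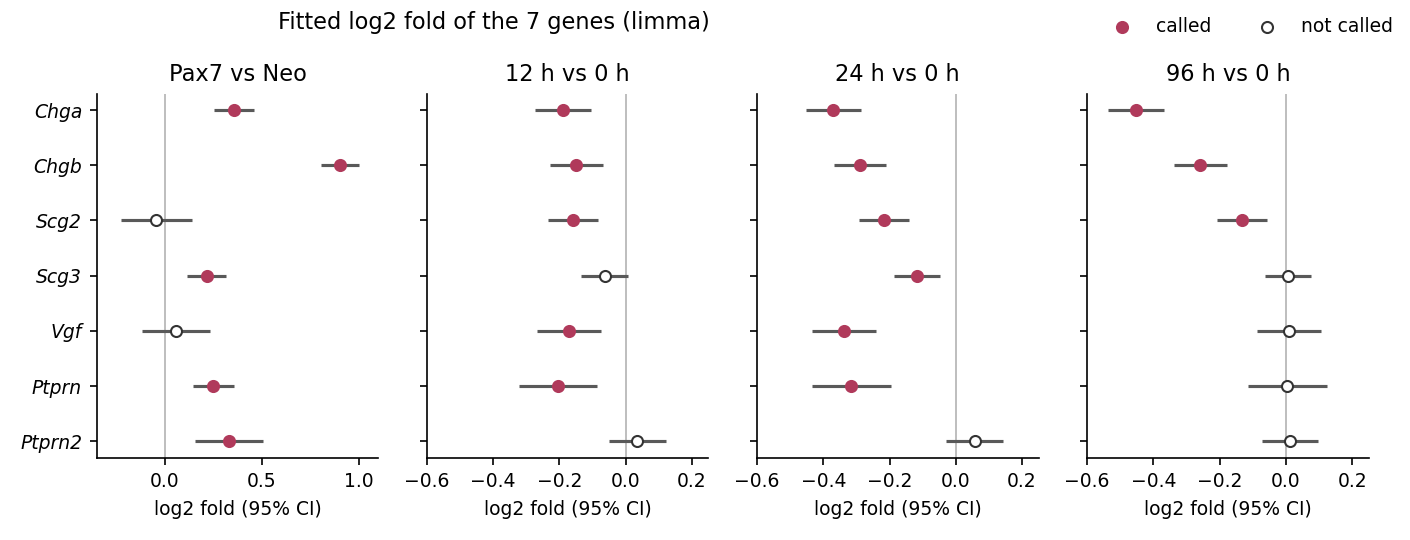
Log2 folds of the 7 genes from limma with 95% confidence intervals, for Pax7 over Neo cells and for 12, 24 and 96 h over 0 h in ER-Pax7 cells; filled points passed an adjusted p of 0.05 and open points did not. The first panel has its own axis range, and its called points lie right of 0 while every called point of the time course lies left of 0.

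Per kilobase of exon, the 7 transcripts spanned a wide range of levels. At 0 h the mean was 15583 ± 209 scaled reads per kb for Chga, 6153 ± 104 for Chgb, 1507 ± 49.5 for Scg2, 699 ± 12.7 for Scg3, 244 ± 11.6 for Ptprn, 213 ± 8.91 for Vgf and 178 ± 6.43 for Ptprn2 (SD, n = 3). The libraries of neighbours in that order did not overlap at 0 h. At 24 h the order at the low end had changed, with 196 ± 11.3 for Ptprn, 185 ± 5.09 for Ptprn2 and 169 ± 9.04 for Vgf, and there the ranges of Ptprn and Ptprn2 overlapped. The 5 granins summed to 24155 ± 365 scaled reads per kb at 0 h. Their sum was 21425 ± 523 at 12 h, was 19205 ± 296 at 24 h and stood at 18822 ± 126 after 96 h. Over the 4 times Chga made up 64.5%, 63.8%, 62.8% and 60.5% of that sum, while Chgb made up 25.5%, 25.9%, 26.2% and 27.3%. The share of Scg2 was 6.24% at 0 h and 7.30% at 96 h, that of Scg3 2.89% and 3.73%, and that of Vgf 0.883% and 1.14%.

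**Figure D3:**
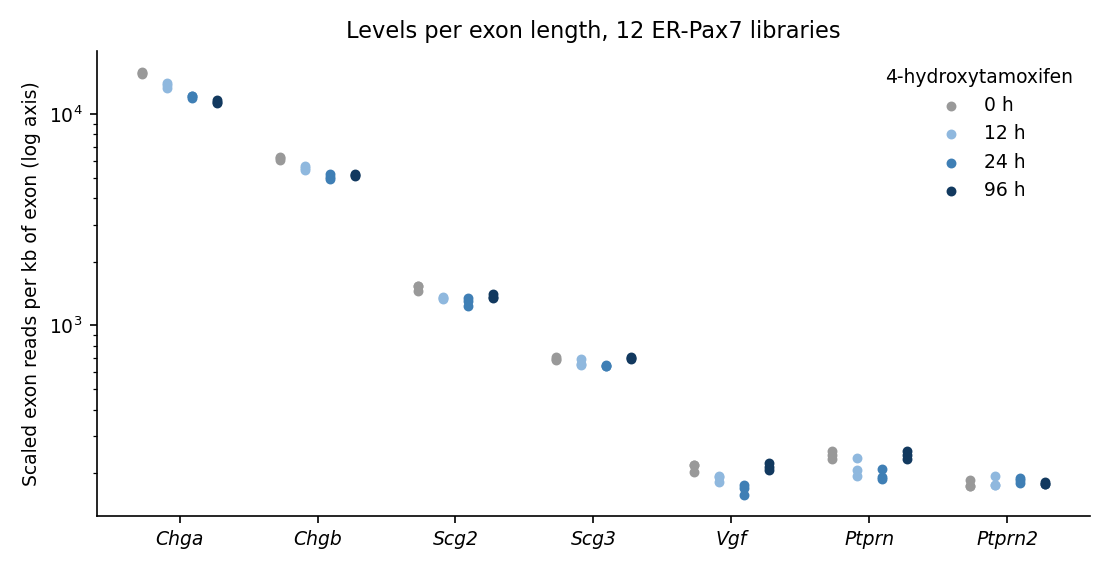
Scaled exon reads per kb of exon (log axis) of the 7 genes in the 12 ER-Pax7 libraries, one point per library, shaded by hours of 4-hydroxytamoxifen. Chga and Chgb stand far above the other 5, and at 24 h Vgf lies below Ptprn2, whereas at 0 h it lies above it.

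Ratios of the transcripts within each library compare the courses directly. All 21 pairs were tested over the 4 times with an exact permutation test over the 15400 arrangements of the 12 libraries. It is a test of any difference between times and was chosen after the values had been seen. After Benjamini-Hochberg adjustment 19 passed. The 21 ratios are built from the same 7 transcripts and are not independent results. Pairs of other genes were not tested, so no share over all genes stands beside this count. The Ptprn to Ptprn2 ratio changed by -0.24 on the log2 scale at 12 h, -0.37 at 24 h and -0.01 at 96 h against 0 h (exact p = 0.0013, adjusted 0.00455). The ratio of Chga to Chgb changed by -0.04, -0.08 and -0.19 at the same times (exact p = 6.49e-05, the smallest these permutations can give, adjusted 6.82e-04). Chga to Vgf changed by -0.02 and -0.03 at 12 and 24 h and by -0.46 at 96 h (exact p = 0.0156, adjusted 0.0205). The pairs that did not pass were Vgf to Ptprn, at 0.03, -0.02 and 0.01 (exact p = 0.849), and Scg2 to Ptprn, at 0.04, 0.10 and -0.14 (exact p = 0.0636, adjusted 0.0668).

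**Figure D4:**
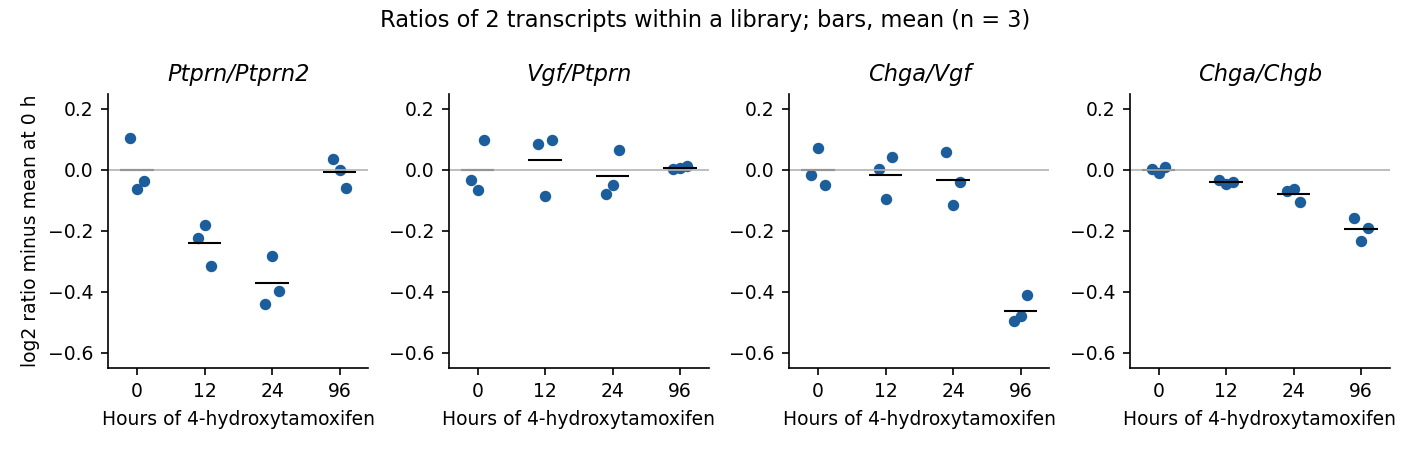
Log2 ratio of 2 transcripts in each ER-Pax7 library minus its mean at 0 h, against hours of 4-hydroxytamoxifen; points are libraries and bars are means of 3. Ptprn to Ptprn2 dips at 24 h to -0.37 and returns, Vgf to Ptprn stays near 0, and Chga to Vgf stays near 0 until it lies at -0.46 at 96 h.

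Genes outside the 7 with the most similar course were found by the root mean square difference of centred log2 values over the 12 libraries, among 9373 genes averaging at least 100 scaled reads. These libraries share their scaling, and the measure is a description. For Chga the nearest were Glce at 0.0413 and Galnt10 at 0.0451, and for Chgb they were Cyb561 at 0.0380 and Ddost at 0.0400. For Scg2 they were Pdia4 at 0.0326 and Vldlr at 0.0329, and for Scg3 Copa at 0.0309 and Abhd5 at 0.0321. Vgf was nearest to Irf7 at 0.0467 and to Pomc at 0.0472. Pomc had log2 folds of -0.17 at 12 h, -0.32 at 24 h and -0.03 at 96 h, beside -0.17, -0.34 and 0.01 for Vgf. Ptprn was nearest to Nptx2 at 0.0632 and Naaa at 0.0707, and Ptprn2 to Dcaf10 at 0.0273 and Arl8a at 0.0274.

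In cells with the constitutive Pax7 construct, 5 of the 7 genes were higher than in Neo cells and 0 were lower (limma, adjusted p under 0.05). The comparison called 36.7% of all 13393 tested genes and 18.5% of them as higher. With 1 library left out, 2 to 4 of the 7 were called, and the calls over all genes were 2001 to 2928, against 4917 with all libraries. The median log2 fold of the 7 was 0.25, against 0.01 for all genes. Of all called genes, 50.5% were higher with TMM scaling and 67.7% with library totals, which moved the median of all genes to 0.07. These values are FPKM over whole gene bodies, introns included, so they are not set beside the exon levels, and folds are on the log2(FPKM + 0.1) scale.

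Among the granins, Chgb stood at 175.5 and 182.6 FPKM in Pax7 cells, against 95.3 and 96.2 FPKM in Neo cells. The log2 fold was 0.90 ± 0.03 (SE, limma adjusted p = 0.00185), a ratio of means of 1.87. Chga stood at 305.9 and 317.7 FPKM in Pax7 cells, against 245.6 and 241.4 FPKM in Neo cells (log2 fold 0.36 ± 0.04, adjusted p = 0.00736). Both Pax7 libraries lay above both Neo libraries for each chromogranin. Scg3 was also higher, at 4.49 and 4.44 FPKM in Pax7 cells against 3.92 and 3.74 FPKM in Neo cells (log2 fold 0.22, adjusted p = 0.0186). Its call was lost without Pax7 replicate 1 or 2 or Neo replicate 2, where adjusted p was 0.0832, 0.08 and 0.0615.

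Scg2 and Vgf overlapped between the groups. Scg2 had 46.9 and 52.7 FPKM in Pax7 cells and 50.5 and 52.0 FPKM in Neo cells, a log2 fold of -0.04 (95% interval -0.23 to 0.14, limma adjusted p = 0.641) that was 0.03 with library totals. Vgf had 46.3 and 49.3 FPKM in Pax7 cells and 48.1 and 43.8 FPKM in Neo cells, a log2 fold of 0.06 (95% interval -0.12 to 0.23, adjusted p = 0.504).

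The transcripts of both membrane proteins were higher in Pax7 cells. Ptprn had 10.6 and 10.8 FPKM in Pax7 cells, against 9.20 and 8.77 FPKM in Neo cells (log2 fold 0.25 ± 0.04, limma adjusted p = 0.0148). The call was lost without Pax7 replicate 1 or 2, with adjusted p of 0.0577 and 0.0736. Ptprn2 had 0.201 and 0.199 FPKM in Pax7 cells, against 0.141 and 0.136 FPKM in Neo cells. Its log2 fold was 0.33 ± 0.06 (adjusted p = 0.0239), while the ratio of means was 1.44, since the pseudocount of 0.1 lowers the fold at this level. The Ptprn2 call was lost whichever of the 4 libraries was left out (adjusted p 0.0848 to 0.106). Its low FPKM comes from a gene body of 792447 bases, over which an estimated 5987 to 8598 reads lay. Before scaling, the deposited FPKM were 0.21 and 0.20 in Pax7 cells and 0.14 and 0.13 in Neo cells, rounded to 2 decimals. A step in the last digit stands for 372 to 491 reads, so the scatter and the read numbers of Ptprn2 are coarse.

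**Figure D5:**
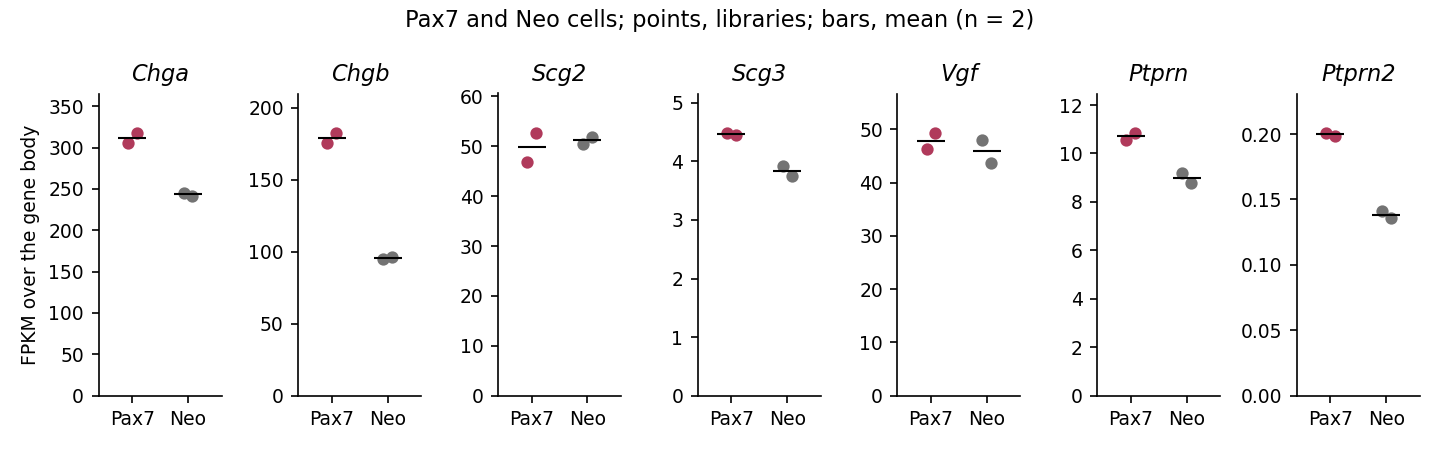
FPKM over the gene body of the 7 genes in Pax7 and Neo cells, each panel with its own axis starting at 0; points are libraries and bars are means of 2. Chgb shows the widest gap, at 175.5 and 182.6 in Pax7 cells against 95.3 and 96.2 in Neo cells, and the Scg2 and Vgf points overlap.

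Other granule genes were listed by role, and their counts stand beside 36.7% of all tested genes called in Pax7 over Neo cells, 6.49% at 12 h, 13.5% at 24 h and, at 96 h, 33.7%. Of 2 further granin-like genes (Scg5 and Pcsk1n), 1 was higher in Pax7 than Neo cells, the convertase chaperone Scg5 at a log2 fold of 0.44 (limma adjusted p = 0.00507). At 24 h against 0 h, 1 of these 2 was lower (Scg5 at -0.14), and 0 were called at 12 or 96 h. Of 8 tested prohormone processing genes, 5 were higher and 0 lower in Pax7 than Neo cells, led by the convertases Pcsk2 (3.00) and Pcsk1 (0.74), with the protease Ctsl and the amidating enzyme Pam both at 0.40. At 96 h 5 of the 8 were higher and 2 lower than at 0 h, with Pcsk2 at 1.46, Pam at 0.27, the carboxypeptidases Cpe at 0.16 and Cpd at -0.19. At 12 h this list had 1 higher and 1 lower, and at 24 h 1 higher and 2 lower. Its median log2 fold was 0.32 in Pax7 over Neo cells and 0.16 at 96 h over 0 h.

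Of 10 tested genes for granule biogenesis, 2 were higher in Pax7 than Neo cells (Hid1 at a log2 fold of 0.21 and Ccdc186 at 0.19, limma) and 0 were lower. At 96 h 1 was higher than at 0 h (Ica1 at 0.11) and 2 were lower (Vps51 at -0.16 and Hid1 at -0.13), at 12 h 1 was higher and 1 lower, and at 24 h 0 were higher and 1 lower. In Pax7 over Neo cells and at 24 and 96 h these counts were below the shares over all genes (36.7%, 13.5% and 33.7%). Of 13 tested exocytosis genes, 6 were higher and 1 lower in Pax7 than Neo cells, among them the granule GTPases Rab27a (1.13) and Rab3a (0.48), the priming factor Unc13a (0.43) and the Rab27 effector Sytl4 (-0.64). At 96 h 3 of 15 were higher and 6 lower than at 0 h, with Rab27a at 0.77, Sytl4 at -0.78, Rab3d at -0.27 and the fusion protein Snap25 at -0.24. At 12 h 1 was higher and 4 lower, and at 24 h 2 were higher and 5 lower.

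Of 3 tested granule cargo genes, 1 was higher and 0 lower in Pax7 than Neo cells, the amyloid peptide precursor Iapp at a log2 fold of 3.26 (limma). Pomc stood at 2286 and 2434 FPKM in Pax7 cells and 2490.2 and 2499 FPKM in Neo cells, a log2 fold of -0.08 (adjusted p = 0.304). At 12 h 0 of these 3 were higher and 2 lower than at 0 h, at 24 h 0 were higher and 3 lower, Pomc among them at -0.32 (adjusted p = 2.14e-04), and at 96 h 2 were lower (Iapp at -1.60 and Nucb2 at -0.52). Of 8 tested transcription factors known to act on granule genes, 2 were higher and 5 lower in Pax7 than Neo cells, with Crem at 0.68, Creb1 at -0.34, Nkx2-2 at -0.63 and Sp1 at -0.32. At 96 h 2 of 9 were higher and 3 lower than at 0 h, with Crem at 0.57, Neurod1 at 0.30, Creb1 at -0.30 and Rest at -0.77. At 12 h 0 were called, and at 24 h 1 was higher and 1 lower. Rest averaged only 5.15 scaled exon reads at 96 h and 9.47 at 0 h. A link between its level and Scg2 or Ptprn2, whose windows hold letters of its element, was not tested.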

How the data were processed

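Per the labels' protocols, ribosomal RNA was removed from total RNA and paired reads of 50 bp were made. The submitters' processing notes name TopHat, HOMER and edgeR, with no version, and the build mm10 (GRCm38). For ER-Pax7 cells the authors counted reads over exons without strand and deposited them as signal values scaled to a common total. For Pax7 and Neo cells the authors deposited FPKM over gene bodies. The deposited log2 folds and the deposited p-value columns are the authors' own and serve for comparison. All sample columns were mapped to samples, and the labels name no batch.

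ER-Pax7 values were whole reads (100% within 0.1 reads). The edgeR test designed for counts was replaced by limma 3.58.1 (R 4.3.3) on log2 values after TMM scaling (edgeR 4.0.16), with Benjamini-Hochberg adjustment and a threshold of 0.05. ER-Pax7 genes needed at least 1 scaled read in 3 libraries (15188 tested, pseudocount 1), all 4 times sharing 1 spread, and Pax7 and Neo genes at least 0.1 FPKM in 2 libraries (13393 tested, pseudocount 0.1). Folds of low genes are understated. edgeR and DESeq2 1.42.0 on recovered reads, other scalings, pseudocounts and filters, a replicate block and each library left out were alternatives. The fits were also run on simulated reads with the same fixed spread for every gene, which the scatter of these libraries need not follow. The outcome is not given here.

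The 7 genes and the gene lists were chosen with earlier results of these data known. Named are all 7, Pax7 as a construct gene, and the 2 genes nearest in course to each of the 7. Also named are up to 4 list members with the smallest adjusted p in Pax7 over Neo and in 96 h over 0 h. The planned check of the construct gene Esr1 is not reported here. A gene of the transcription factor list is not reported here, and Gnas was left out of the granin list, since the files name its locus and not its granin product. Pcsk1n and Pomc, the marker genes and Rn45s were named outside that rule for a check or a list's content. Reads carry no molecular identifiers. Genes that overlap cannot be separated without strand.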

Additional observations from a re-analysis of the deposited data

Results flagged for a closer look

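Both chromogranins moved in opposite directions in the 2 systems. Chgb had a log2 fold of 0.90 in Pax7 over Neo cells and of -0.26 at 96 h over 0 h in ER-Pax7 cells. Chga had 0.36 in Pax7 over Neo cells and -0.45 at 96 h over 0 h. Every Pax7 library lay above both Neo libraries for each gene, and every 96 h library lay below all 0 h libraries. How many of all genes lie apart in this way is not given here. Among the other granule genes, Iapp (3.26 and -1.60) and Hid1 (0.21 and -0.13) also had called folds of opposite sign. So did Neurod1 of the transcription factor list, in the other order (-0.20 and 0.30). Pcsk2 (3.00 and 1.46) and Rab27a (1.13 and 0.77) were higher in both comparisons. The 2 systems are in separately scaled tables with different units (FPKM over gene bodies and scaled exon reads), and the difference between them was not tested.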

How the results depend on the processing

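Over 49 results of the 7 genes and 896 alternative fits, 841 kept the direction and the side of the threshold, 36 lost a call, 5 gained a call and 14 changed sign, with 0 sign changes of a called fold. The number of the 7 called at 12 h was 5, against 2 with no filter on low values and 3 when only 0 and 12 h were fitted. At 24 h against 12 h it was 0, against 1 with the replicate block, 1 with edgeR and 2 with DESeq2. With each library left out in turn, the calls were 2 to 4 for Pax7 over Neo (5 with all libraries), 2 to 5 at 12 h, 5 to 6 at 24 h and 2 to 3 at 96 h over 24 h, and the all-time test called 5 to 6. Chga and Chgb in Pax7 over Neo, Chga and Scg2 at 12 h, Chga, Chgb, Scg2, Vgf and Ptprn at 24 h, Chga, Chgb and Scg2 at 96 h, and Vgf and Ptprn at 96 h over 24 h kept their calls in each such fit.

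Over all genes, Pax7 over Neo called 4917, and 2001 to 2928 with a library left out. The 24 h over 12 h count was 26, against 17 with no filter on low values, 16 with only those times, 54 with the replicate block and 98 with DESeq2, and 11 to 31 with a library left out. The 96 h over 24 h count was 1929, and 1268 without 96 h replicate 2.

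Sign changes were all of folds that did not pass. For Pax7 over Neo, Scg2 ranged from -0.129 to 0.0466 with a library left out and was 0.0286 with library totals, and Vgf ranged from -0.0106 to 0.125. At 96 h the ranges were -0.00249 to 0.0209 for Scg3, -0.0249 to 0.0402 for Vgf, -0.0286 to 0.0394 for Ptprn and -0.00362 to 0.0421 for Ptprn2. Ptprn2 ranged from -0.0108 to 0.0655 at 12 h and from -0.00250 to 0.0676 at 24 h over 12 h. The causes were not tested.

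The labels share replicate numbers across groups. Same-numbered ER-Pax7 libraries had correlated deviations of -0.27 to 0.53, with 15 of 18 over 0.1, and 11 of 12 libraries correlated best with their own number, a hint from the data and not the design. For Pax7 and Neo the correlation was 0.07. With the replicate block, the Ptprn2 call in Pax7 over Neo was lost (adjusted p = 0.0537 by limma) and Chga at 24 h over 12 h was gained (0.0119). Only 2 libraries each limit Pax7 over Neo.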

Other observations

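The submitters' processing notes name edgeR among their tools. The authors' deposited table gave Chgb a log2 fold of 0.87 and an FDR of 9.38e-08 in Pax7 over Neo cells. The authors' deposited table gave Chga 0.32 with an FDR of 0.266, and gave Scg3 and Ptprn2 a log2 fold of exactly 0 with an FDR of 1. Ptprn, called here, had 0.22 with an FDR of 1 in the authors' deposited table. For ER-Pax7 cells at 96 h over 0 h, the authors' deposited table gave Chga -0.45 (FDR 1.27e-99), Chgb -0.26 (FDR 4.01e-31) and Scg2 -0.14 (FDR 0.00141). Of calls made here, the authors' deposited table did not pass Vgf and Ptprn at 12 h (FDR 0.161 and 0.143) or Scg3 at 24 h (FDR 0.0967). The authors' deposited table did pass Chga at 24 h over 12 h (FDR 0.00298) and at 96 h over 24 h (FDR 0.0130), which were not called here.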
